A study of Mus musculus with 40 samples.

Results

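Keg1, Gldc, Gpt2 and 7 other genes of glycine, alanine and acyl-glycine metabolism were followed in the mouse kidney that remains after the other kidney has been removed. The 10 genes were Keg1, Glyat, Gldc, Amt, Gcsh, Gpt, Gpt2, Gatm, Shmt1 and Agxt2, out of 28467 genes in the whole-kidney (bulk) table and 32285 in the table of single nuclei. They were listed because Keg1, Gldc and Gpt2 were lower in proximal tubule nuclei after surgery, so their values in those nuclei are given as a description, and the counts of calls printed for them there support nothing. The bulk kidneys came from other mice, and there the genes were tested. All 10 passed the filter on low counts in every bulk comparison.

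All mice were male C57BL/6 animals of 8 to 12 weeks with no engineered allele. In the unilateral nephrectomy groups (UNx) the left kidney was removed, and the sham groups had the same operation without the removal; both had isoflurane, saline and buprenorphine. RNA was taken from a cross-section of the right kidney. For bulk RNA-seq, 6 sham and 6 UNx mice were studied 24 h after the operation, with as many at 48 h and at 72 h (36 libraries). Single-nucleus RNA-seq covered 2 sham and 2 UNx mice at 24 h, called sham1, sham2, UNx1 and UNx2 below. The labels put the 24 h bulk libraries in batch 1 and the 48 and 72 h libraries in batch 2. They put sham1 and UNx1 in batch 3, and sham2 and UNx2 in batch 4.

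Glycine is broken down in mitochondria by the glycine cleavage system, in which Gldc (the glycine decarboxylase, or P protein), Gcsh (the H protein, which carries the intermediate), Amt (the aminomethyltransferase, or T protein) and Dld (the dihydrolipoamide dehydrogenase) pass on a one-carbon unit to folate. The enzyme of Glyat joins glycine to acyl groups such as benzoyl, and Keg1 (kidney expressed gene 1) encodes a protein of the same glycine N-acyltransferase family. Gpt and Gpt2 are the cytosolic and mitochondrial alanine aminotransferases, Gatm uses glycine in the first step of creatine synthesis, Shmt1 interconverts serine and glycine in the cytosol, and Agxt2 is a mitochondrial alanine-glyoxylate aminotransferase. The proximal tubule, whose segments S1 to S3 reabsorb filtered amino acids, is a main site of amino acid metabolism in the kidney.

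Some libraries stood apart. A profile score was computed over pseudogenes, placing each bulk library between the later shams (0) and the 24 h shams (1). It ran from 0.928 to 1.03 in the 24 h shams and from 0.674 to 0.884 in the 24 h UNx libraries, with no overlap. Among the 48 h UNx libraries the score was 0.640 to 0.717 in replicates 1 to 5 but 0.00628 in replicate 6, whereas all 48 h shams and all 72 h libraries lay between -0.0479 and 0.0947. The mitochondrially encoded share of counts was 25.8% to 26.4% in those 5 UNx libraries and 15.2% in replicate 6. Bulk depth was 14.9 to 24.1 M counts (M, 1000000). The 16500 nuclei had median totals of 7581, 9909, 8370 and 8063 UMIs (unique transcript tags) in sham1, sham2, UNx1 and UNx2, and any pair of nucleus libraries shared at most 7 barcodes. Keg1 was also counted in nuclei of other classes. Of all Keg1 UMIs, 98.8%, 73.0%, 94.3% and 66.6% lay in proximal nuclei in sham1, sham2, UNx1 and UNx2. Of the UMIs of all genes, 55.6%, 45.8%, 57.1% and 45.3% lay there, so both shares were lower in batch 4. Whether the Keg1 RNA in other classes came from proximal cells was not tested.

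Keg1 and Glyat are neighbours on chromosome 19 (GRCm38.p6, chr19:12695790-12719902 and chr19:12633308-12651737), and Gldc lies on the same chromosome (chr19:30098441-30175441), with Gpt2 at chr8:85492576-85528902. Their promoters are shown because Keg1, Gldc and Gpt2 were lower together in proximal nuclei whereas Glyat, beside Keg1, was not. Each runs from 250 bases before to 50 bases after the gene's start (RefSeq, GRCm38.p6), 5′ to 3′ on the gene's strand, and capitals mark a match to any of 7 motifs searched on both strands.
Keg1, chr19:12695540-12695839 (+): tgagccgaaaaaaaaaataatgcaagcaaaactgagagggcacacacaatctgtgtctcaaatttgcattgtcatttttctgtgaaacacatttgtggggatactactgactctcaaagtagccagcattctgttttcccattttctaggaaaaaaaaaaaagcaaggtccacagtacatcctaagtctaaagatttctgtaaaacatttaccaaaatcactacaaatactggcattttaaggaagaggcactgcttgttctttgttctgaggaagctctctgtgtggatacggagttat
Glyat, chr19:12633058-12633357 (+): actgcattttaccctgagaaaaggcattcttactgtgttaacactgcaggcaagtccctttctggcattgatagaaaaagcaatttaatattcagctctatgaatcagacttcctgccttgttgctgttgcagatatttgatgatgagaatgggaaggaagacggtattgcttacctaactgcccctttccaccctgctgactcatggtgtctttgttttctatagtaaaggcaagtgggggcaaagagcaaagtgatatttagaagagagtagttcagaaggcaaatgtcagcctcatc
Gldc, chr19:30175392-30175691 (-): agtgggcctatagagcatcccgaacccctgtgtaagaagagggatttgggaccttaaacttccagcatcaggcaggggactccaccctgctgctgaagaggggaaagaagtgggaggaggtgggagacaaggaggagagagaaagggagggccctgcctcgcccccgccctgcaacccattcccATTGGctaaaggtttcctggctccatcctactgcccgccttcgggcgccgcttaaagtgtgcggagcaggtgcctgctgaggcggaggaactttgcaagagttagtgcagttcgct
Gpt2, chr8:85492326-85492625 (+): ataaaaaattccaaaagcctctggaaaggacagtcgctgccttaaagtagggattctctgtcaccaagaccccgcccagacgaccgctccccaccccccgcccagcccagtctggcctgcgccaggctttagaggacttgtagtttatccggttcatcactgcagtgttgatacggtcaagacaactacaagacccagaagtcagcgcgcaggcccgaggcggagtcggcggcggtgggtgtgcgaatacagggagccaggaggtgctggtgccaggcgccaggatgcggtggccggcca
The Keg1 and Glyat promoters hold 37.3% and 42% G or C with 2 and 1 CG pairs, and those of Gldc and Gpt2 59% and 60.3% with 10 and 19 CG pairs. Over all 32817 promoters of this length the medians were 52.7% (quartiles 45.7% and 61.7%) and 7 CG pairs (quartiles 3 and 20). Keg1 and Glyat thus sat below the lower quartile of both measures. The only motif match in the 4 was ATTGG in Gldc, 66 bases before the start, which is the CCAAT box read on the other strand.

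The 7 motifs, read on 9 of the 10 genes (Gpt was not matched to the promoter table), gave few matches. The CCAAT box was found in 5 of 9 (Amt, Gatm, Gcsh, Gldc and Shmt1), against 37.4% of all promoters. An HNF4A site (CAAAGTCCA; 0.475% of all promoters) and a TATA box (TATAAA; 13.6%) were each found in Agxt2 alone. No match was found for the HNF1 palindrome (searched by its full site; 0.00914%), the HNF1 core GTTAAT, which is part of that palindrome (7.1%), the amino acid response element core (TGATGCAA; 0.896%) or the E-box (CACGTG; 7.15%).

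In the shams, most members were proximal tubule genes at 24 h. Levels in nuclei are counts per M (CPM), the estimated UMIs of a gene per M UMIs summed over a mouse's nuclei of 1 class. Of 23 classes with at least 10 nuclei in every mouse, Keg1, Glyat and Agxt2 had their highest mean of both shams in the 3 proximal classes PTS1, PTS2 and PTS3 (segments S1 to S3 in the authors' annotation). Keg1 stood highest in PTS2, at 8231 and 5936 CPM in sham1 and sham2, with PTS3 at 8269 and 5112 and PTS1 at 6533 and 4473. The order of these 3 classes was not the same in both mice. The median over the 20 other classes was 97.9 and 1443 CPM, so sham1 and sham2 differed far more outside the proximal tubule than in it.

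Gldc had a gradient along the tubule that Keg1 did not have. Its sham levels ran from 593 and 639 CPM in PTS1 through 178 and 277 in PTS2 to 1.78 and 67.5 in PTS3. Outside the proximal classes its medians were 7.03 and 112 CPM, so its PTS3 levels lay below them. Gpt2 was at 60.8 and 57.9 CPM in PTS1, 42.6 and 86.0 in PTS2 and 6.29 and 29.3 in PTS3, the last close to its outside medians of 7.62 and 23.1. Gatm was highest in PTS1, at 1042 and 795 CPM, with PTS2 at 172 and 264 against outside medians of 62.7 and 239. Shmt1 was the exception in place: its highest classes were the thick ascending limb classes CTAL2, at 223 and 151 CPM, and MTAL, at 187 and 165, whose order differed between the mice, whereas PTS1 held 25.7 and 44.6. Amt, Gcsh and Gpt were low in every class (at most 23.6, 40.1 and 14.6 CPM in a sham class), and their order of classes cannot be read at this depth.

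**Figure D1:**
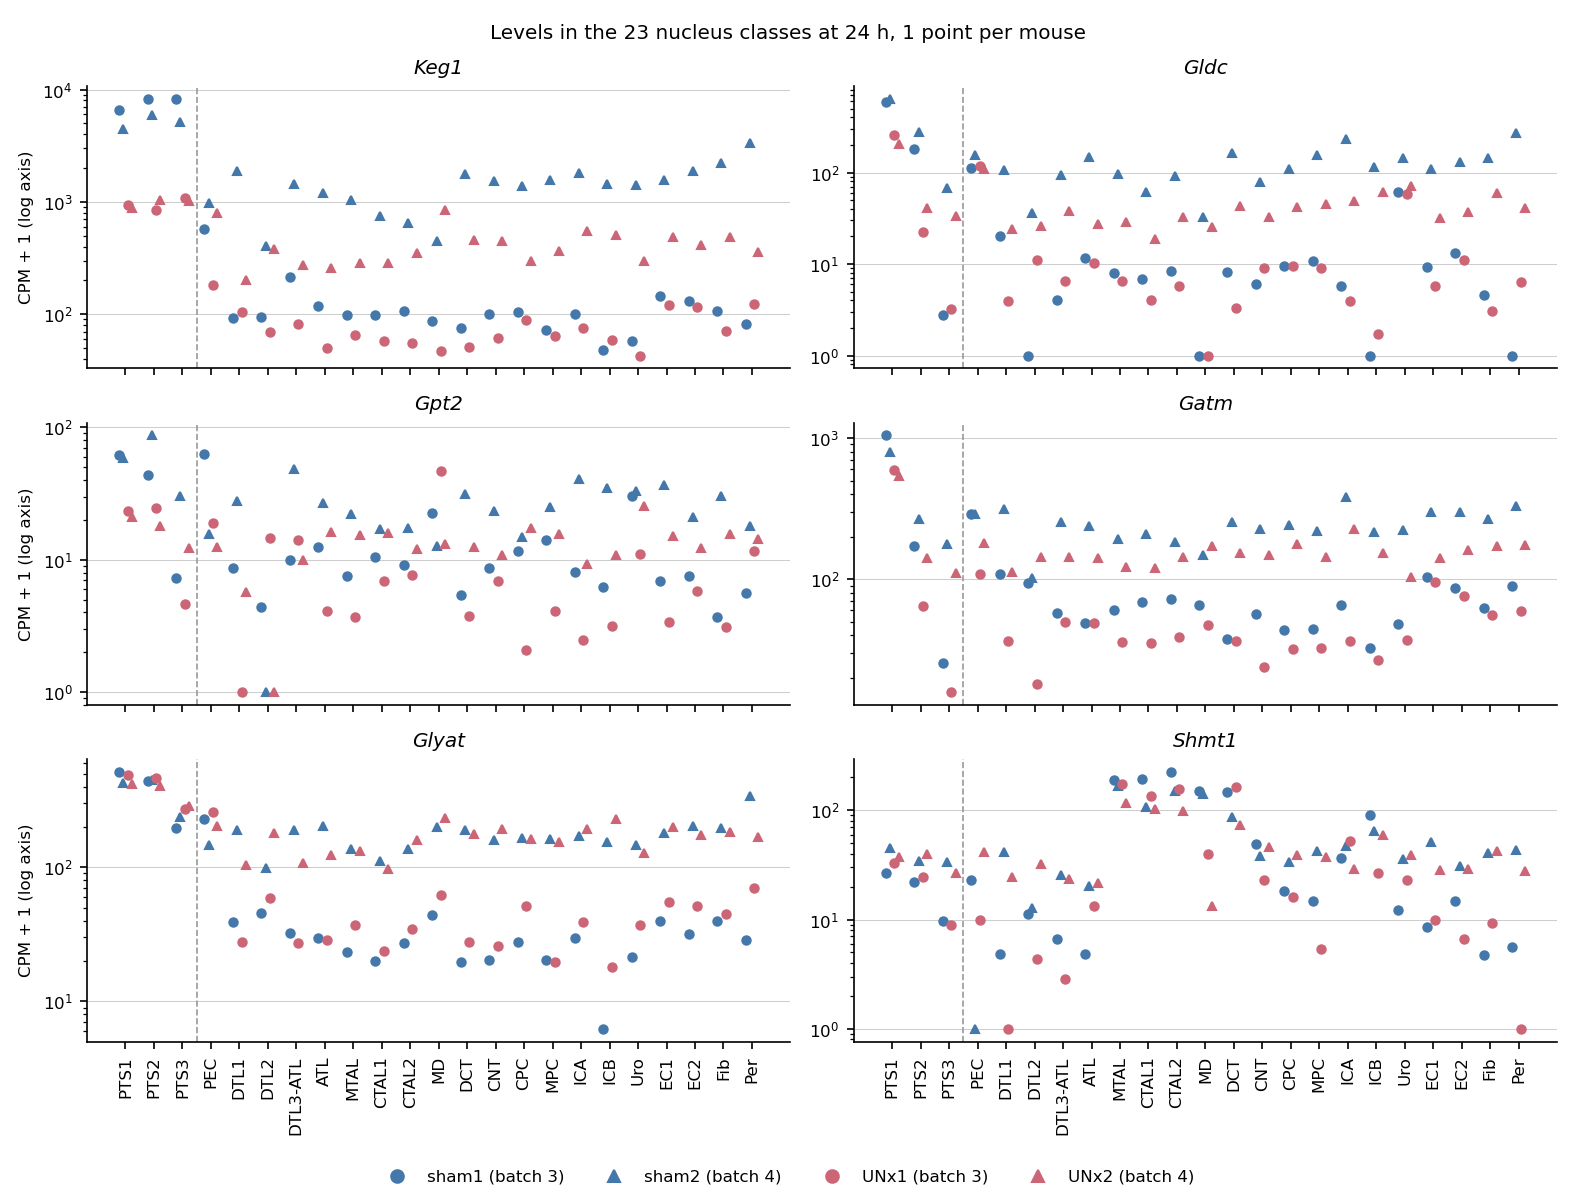
CPM + 1 on a log axis of 6 members in 23 nucleus classes at 24 h, 1 point per mouse (blue sham, red UNx; circles batch 3, triangles batch 4), with the proximal classes left of the dashed line. Keg1 is about as high in all 3 proximal classes, Gldc declines from PTS1 to PTS3, Shmt1 is highest in thick ascending limb classes, and outside the proximal classes the batch 4 mice (triangles) mostly lie above the batch 3 mice.

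The genes whose sham levels were most like those of Keg1 over the 23 classes were Slc22a28 (an organic anion transporter family gene; Pearson r = 0.989), Pecr (peroxisomal trans-2-enoyl-CoA reductase; 0.984) and Hnf4aos (an antisense transcript at Hnf4a; 0.982), out of 13313 genes. For Gldc they were Slc16a14 (0.927), Lipa (lysosomal acid lipase; 0.914) and Tnfaip8 (0.888), and for Gpt2 Asb13 (0.861), Pvt1 (0.851) and Eef1akmt3 (0.846). These correlations are on log2(CPM + 1) of the mean of both shams, and the classes share libraries and depth. Whether the classes also share RNA from proximal cells was not tested.

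The acyl-glycine genes parted in proximal nuclei after UNx. Keg1 in PTS1 was at 6533 and 4473 CPM in sham1 and sham2 and at 946 and 883 in UNx1 and UNx2. Both UNx mice were below both shams, 5.81-fold lower in the fit (log2 -2.54), with 6.91-fold within batch 3 and 5.06-fold within batch 4. In PTS2 the values were 8231, 5936, 850.4 and 1046 CPM, 9.68-fold lower within batch 3 and 5.67-fold within batch 4. In PTS3 they were 8269, 5112, 1079.9 and 1022 CPM, 7.66-fold and 5.00-fold lower. The fold was larger within batch 3 than within batch 4 in each of the 3 segments.

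Glyat did not share this. In PTS1 it was at 511, 427, 487 and 418 CPM in sham1, sham2, UNx1 and UNx2, and in PTS2 at 435, 449, 461 and 406, so that sham and UNx mice overlapped in both (log2 differences 0.00 and -0.02). In PTS3 it was at 195 and 234 CPM in the shams and 269 and 285 in the UNx mice, higher in both UNx mice (log2 0.37). Keg1 and Glyat transcripts share few sequences: 0.244% of the 31-base words of Keg1 occur in transcripts of other genes, 6 of them in Glyat.

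Of the glycine cleavage genes, Gldc stood out. In PTS1 it was at 593 and 639 CPM in the shams and 259.6 and 206 in the UNx mice, both below both shams (log2 -1.34; 2.28-fold lower within batch 3, 3.10-fold within batch 4). In PTS2 the values were 178, 277, 21.2 and 39.8 CPM (log2 -2.89; 8.41-fold and 6.95-fold lower). The UNx2 value of PTS2 was near its median outside the proximal tubule (36.6 CPM), and the UNx1 value lay above its own (5.45 CPM). PTS3 held 1.78, 67.5, 2.23 and 32.1 CPM, below the median outside the proximal tubule in every mouse. Gcsh was at 22.4, 32.2, 9.80 and 21.9 CPM in PTS1, both UNx mice below both shams by a narrow margin (log2 -0.73), and its differences in PTS2 and PTS3 were -0.67 and -0.42 with overlap between the groups. Amt was at 7.86, 5.36, 3.22 and 5.87 CPM in PTS1, with overlap, and differed by -0.25 and -0.04 in PTS2 and PTS3.

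The 2 alanine aminotransferases went different ways. Gpt2 in PTS1 was at 60.8 and 57.9 CPM in the shams and 22.2 and 20.2 in the UNx mice (log2 -1.43; 2.74-fold lower within batch 3, 2.86-fold within batch 4). In PTS2 it was at 42.6, 86.0, 23.4 and 16.9 CPM (log2 -1.65), again with both UNx mice below both shams. Gpt was at 6.23 and 4.80 CPM in the shams and 9.01 and 9.07 in the UNx mice in PTS2 (log2 0.73), and at 3.85, 4.29, 8.26 and 8.91 in PTS3 (log2 1.08), higher in both UNx mice in both segments. These Gpt values rest on 17.1 to 97 UMIs per mouse. In PTS1 Gpt was at 2.56, 5.67, 2.32 and 5.13 CPM, which overlapped.

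Gatm was at 1042 and 795 CPM in the shams and 589.8 and 538 in the UNx mice in PTS1, its main class (log2 -0.65; 1.77-fold lower within batch 3, 1.48-fold within batch 4). In PTS2 it was at 172, 264, 63.1 and 141 CPM, beside medians outside the proximal tubule of 62.7, 239, 35.7 and 144, which the batch 4 mice barely exceeded or did not reach. In PTS3 it was at 24.3, 177, 14.8 and 110 CPM, below those medians in every mouse and with overlap between the groups. Shmt1 differed by 0.03, 0.21 and -0.25 on the log2 scale in PTS1, PTS2 and PTS3, with overlap in each. Agxt2 in PTS1 was at 222, 225, 392 and 186 CPM: UNx1 was above and UNx2 below both shams.

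**Figure D2:**
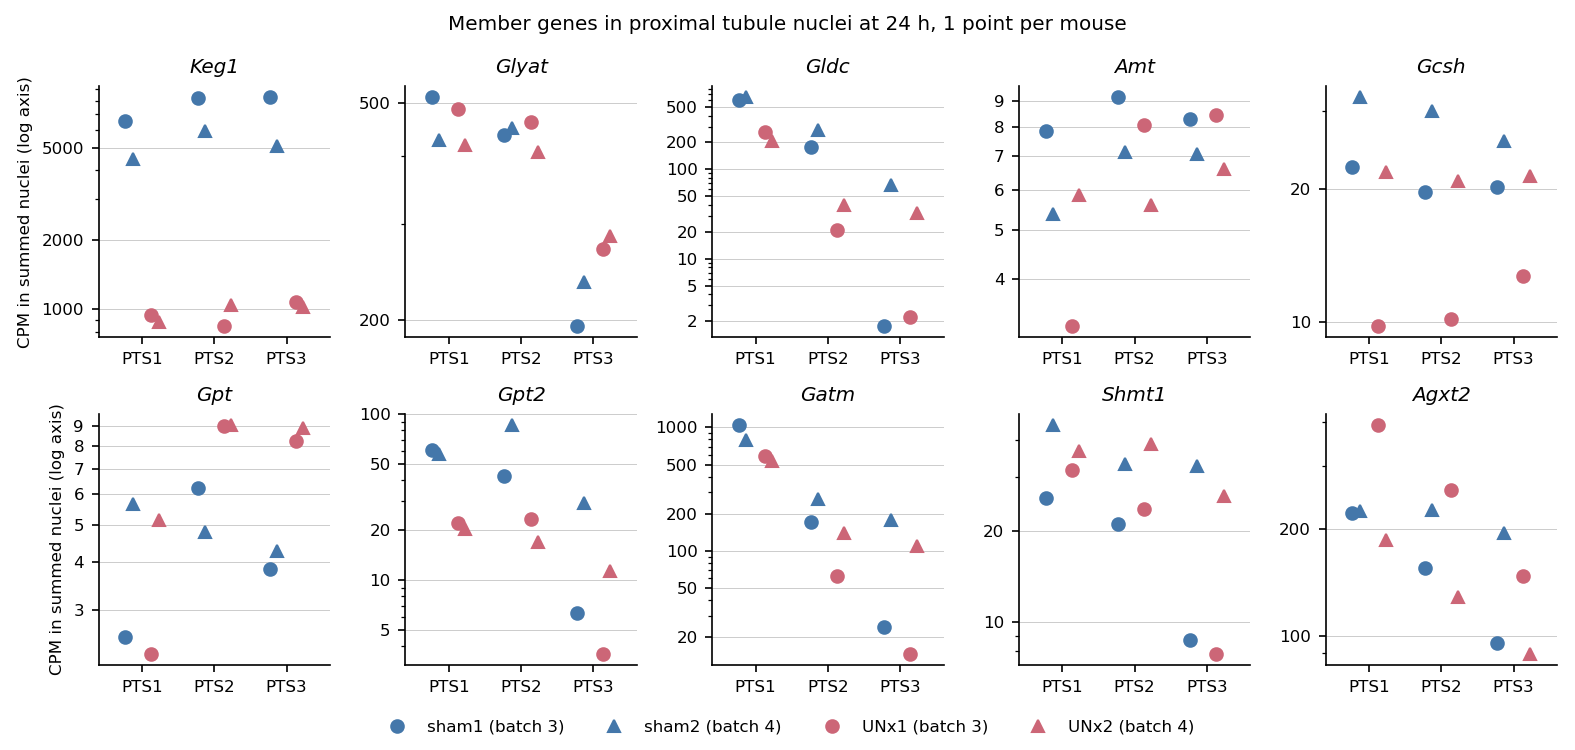
CPM of the 10 members in PTS1, PTS2 and PTS3 nuclei at 24 h, 1 point per mouse on log axes that differ between panels (blue sham, red UNx; circles batch 3, triangles batch 4). Both UNx mice lie below both shams for Keg1 in all 3 classes and for Gldc and Gpt2 in PTS1 and PTS2, while Glyat overlaps in PTS1 and PTS2.

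Counted over the members, both UNx mice were below both shams for 5 of 10 in PTS1, 4 in PTS2 and 1 in PTS3, where 14.2%, 13.0% and 11.0% of all genes tested were. Both were above for 0, 1 and 2, beside 7.21%, 10.6% and 10.2% of all genes. By edgeR's quasi-likelihood test with Benjamini-Hochberg adjustment, 0 of 10 members and 0.00% of all genes were called at an adjusted p under 0.05 in each of the 3 classes. At an unadjusted p under 0.05 there were 3, 3 and 1 members among 182, 336 and 250 genes, and the DESeq2 Wald test called 2, 2 and 1 members among 8, 35 and 25 genes. With the labelled batch as a block, edgeR called 3, 4 and 2 members, all lower, beside 1.63%, 3.03% and 2.47% of all genes called in either direction and 0.978%, 1.81% and 1.62% called lower. The PTS3 count includes Gatm, which lay below its median outside the proximal tubule in every mouse. Since the list was chosen from this contrast, nothing is read from these counts.

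Nearly every PTS1 nucleus held Keg1 RNA, with fewer UMIs per nucleus after UNx. The shares with at least 1 Keg1 UMI were 99.9%, 100%, 97.4% and 97.2% in sham1, sham2, UNx1 and UNx2, at median depths of 10423, 10785, 12414 and 8358 UMIs, and the mean number of Keg1 UMIs per nucleus was 69.3, 63.6, 12.2 and 9.81. After every nucleus was thinned to 1500 UMIs, 97.8%, 96.8%, 63.0% and 65.3% of PTS1 nuclei held at least 1 Keg1 UMI in sham1, sham2, UNx1 and UNx2. The exact 95% intervals, which cover counting error only, were 96.7% to 98.6%, 94.99% to 98.1%, 59.5% to 66.4% and 60.6% to 69.8%, and nuclei of 1 mouse are not replicates. In MTAL nuclei, taken for comparison as a class outside the proximal tubule, the thinned Keg1 shares were 14.0%, 47.2%, 9.72% and 29.9%. Those of PTS1 lay above them in every mouse. For Gldc the thinned shares in PTS1 were 47.4%, 55.0%, 27.1% and 25.3% against 0.562%, 8.29%, 0.917% and 2.82% in MTAL. For Gpt2 they were 8.55%, 8.74%, 2.86% and 3.26% against 0.936%, 2.07%, 0.550% and 4.24%, so in UNx2 the PTS1 share was no higher than in MTAL. The MTAL depths were 6198, 7250, 6709 and 6134 UMIs.

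Outside the proximal classes Keg1 was lower after UNx too. Its median over the 20 other classes was 97.9, 1443, 66.4 and 372 CPM in sham1, sham2, UNx1 and UNx2, lower in the UNx mouse of each batch. So were the medians of Gldc (7.03, 112, 5.45 and 36.6 CPM), Gpt2 (7.62, 23.1, 3.95 and 11.9), Gatm (62.7, 239, 35.7 and 144) and Shmt1 (15.5, 41.0, 13.7 and 37.3). Those of Glyat and Gpt were higher in the UNx mouse of each batch, and those of Agxt2, Amt and Gcsh differed in direction between the batches. Whether these levels are RNA of the nuclei themselves or from proximal cells was not tested.

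The proximal classes were checked against their markers. Of 5 proximal tubule markers, Lrp2 and Cubn (the endocytic receptors megalin and cubilin) were lower in both UNx mice in PTS1, PTS2 and PTS3. Slc34a1 (a phosphate transporter) and Hnf4a (a transcription factor) overlapped in all 3 classes, and Slc13a3 (a dicarboxylate transporter) was higher in both UNx mice in PTS2, at 416 and 582 CPM in the shams and 859.5 and 1013 in UNx, and overlapped in PTS1 and PTS3. The summed level of the 5 in PTS1 was 9692, 10969.5, 8125 and 9570 CPM. Of 3 S2 markers, 2 in PTS1, 3 in PTS2 and 0 in PTS3 were higher in both UNx mice. Of 5 S3 markers, 1 in PTS1 (Slc22a30) and 2 in both PTS2 and PTS3 (Slc5a1 and Atp11a) were. Of 3 S1 markers other than Gatm, none separated the groups in these classes. Summed thick ascending limb markers in PTS1 were 118 and 143 CPM in the batch 3 mice and 2137 and 2686 in the batch 4 mice. The proximal share of nuclei was 39.7%, 40.6%, 38.3% and 38.4%. The part of these shifts in the members' values was not tested. The authors' longer annotation splits the proximal nuclei into clusters named for UNx and clusters that are not. In the UNx cluster of PTS1, the few sham nuclei (14 and 16) held 2685 and 2614 CPM of Keg1, and in the other PTS1 cluster the UNx nuclei (14 and 61) held 1449 and 688, against 6580.5 and 4515 in its sham nuclei.

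In bulk kidney at 24 h the members that were lower in proximal nuclei were not called lower. Bulk levels are CPM of estimated counts after TMM scaling, and are not comparable between genes. By edgeR's quasi-likelihood test with Benjamini-Hochberg adjustment over 14104 genes, 4 of 10 members were called and all 4 rose (Keg1, Glyat, Gldc and Gcsh), beside 27.3% of all genes called and 14.2% called higher. None of the members was called lower, where 13.1% of all genes were. The count was 1 without UNx replicate 3, and 2 without sham replicate 3, sham replicate 5 or UNx replicate 4. The median log2 fold change was 0.20 over the members and 0.01 over all genes. In bulk tissue, fewer cells of a type and less RNA per cell cannot be told apart.

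Keg1 ranged from 974 to 1319 CPM (median 1124) in the 24 h shams and from 1109.7 to 1772 (median 1439) in the UNx kidneys. It rose by 0.36 on the log2 scale (SE 0.11, n = 6 and 6, edgeR adjusted p = 0.0231), and 4 of 6 UNx kidneys lay above every sham. The call was lost without sham replicate 4 (adjusted p = 0.0513), UNx replicate 3 (0.0574) or UNx replicate 4 (0.0503). Glyat ranged from 189.6 to 228 CPM (median 198) in shams and from 189.5 to 278 (median 241) in UNx, with overlap, and rose by 0.24 (SE 0.08, edgeR adjusted p = 0.0431). Of the 12 fits that left out 1 library, Glyat was called in those without sham replicate 4, sham replicate 6 and UNx replicate 6 and lost in the other 9 (highest adjusted p = 0.102).

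Among the glycine cleavage genes at 24 h, Gcsh gave the clearest separation. It ranged from 58.6 to 62.8 CPM in the shams (median 59.3) and from 74.0 to 83.3 in the UNx kidneys (median 78.0), with no overlap; 5.75% of all genes had every UNx kidney above every sham. It rose by 0.40 (SE 0.05, edgeR adjusted p = 6.9e-05) and was called in each of the 12 fits without 1 library. Gldc ranged from 116 to 188 CPM (median 134) in shams and from 159 to 218 (median 173) in UNx, and rose by 0.38 (SE 0.12, edgeR adjusted p = 0.0222), with all 6 UNx kidneys above the sham mean. Its call was lost without sham replicate 3 (0.0526), sham replicate 5 (0.0548) or UNx replicate 3 (0.0524). Amt, the third member of the system in the list, lay between 64.2 and 82.8 CPM in shams and 66.6 and 77.7 in UNx (log2 -0.01, adjusted p = 0.939).

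Gpt2, which was lower in proximal nuclei, was not distinguishable in bulk kidney at 24 h: 43.3 to 67.7 CPM in shams and 43.96 to 78.1 in UNx (log2 -0.05, SE 0.13, edgeR adjusted p = 0.810). Gpt had a log2 fold change of 0.20 (SE 0.14, edgeR adjusted p = 0.313) and Gatm of 0.20 (SE 0.09, adjusted p = 0.101; 0.26 and 0.0309 without sham replicate 1). Shmt1 and Agxt2 differed by 0.10 and 0.11 with adjusted p = 0.295 and 0.172. Adding the profile score as a covariate left 0 of 10 members and 72 of all genes called at 24 h. The score does not overlap between the groups there, so score and surgery cannot be told apart.

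At 48 h, 1 of 10 members was called, beside 32.9% of all genes (16.9% higher, 16.0% lower). Gpt ranged from 7.65 to 9.03 CPM (median 8.30) in shams and from 7.57 to 12.2 (median 11.3) in UNx, and 5 of 6 UNx kidneys lay above every sham. It rose by 0.36 (SE 0.11, edgeR adjusted p = 0.0216). The call was lost with the replicate number as a block (adjusted p = 0.0528), without UNx replicate 5 (0.0508), with the profile score (0.277) and without UNx replicates 1 to 5 (0.212). Amt (log2 0.16, adjusted p = 0.0535), Gatm (0.30, 0.0727), Gldc (0.31, 0.103) and Glyat (-0.24, 0.188) missed the edgeR threshold. Keg1 differed by 0.07, Gcsh by 0.09 and Gpt2 by -0.02.

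The 48 h result turned on UNx replicate 6, the library whose profile resembled the shams. It lay above UNx replicates 1 to 5 for 4 of 10 members: Keg1 was at 1966 CPM in it and at 1258 to 1618 in the other 5, Glyat at 476 against 266 to 371, Gcsh at 109 against 72.7 to 86.6, and Agxt2 at 132 against 83.9 to 129. It lay below them for Gldc (128.8 against 130.7 to 218.5 CPM) and Gatm (952.9 against 987.2 to 1392.8). The share of all genes for which replicate 6 lay outside the other 5 was not computed, so nothing is read from these counts. Without it edgeR called 5 members: Gldc (0.40, adjusted p = 0.0293), Gatm (0.37, 0.0258) and Amt (0.17, 0.0348) higher along with Gpt, and Glyat lower (-0.33, 0.0392). Calls among the 84 tested genes of the wider pathway lists described below, which include the members, also went up, from 25 to 32. Nothing particular to the members is read from their count. With it as the only UNx library, its spread assumed to be that of the shams, Keg1 differed by 0.45, Gcsh by 0.49, Glyat by 0.21 and Gpt by 0.52, and none of the members and no other gene was called. Leaving out sham replicate 4 added Gatm (0.39, adjusted p = 0.0203) and leaving out UNx replicate 3 added Amt (0.20, 0.0241) to the called members.

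At 72 h, 0 of 10 members were called by edgeR, beside 1.71% of all genes. An unadjusted edgeR p under 0.05 was reached by 4 members, beside 2515 of 14556 genes. The DESeq2 Wald test and limma voom each called 2 members, Gldc and Gcsh, beside 673 and 809 genes in all. Gldc ranged from 103 to 195 CPM (median 138) in shams and from 162 to 243 (median 202) in UNx, a log2 fold change of 0.53 (SE 0.13, edgeR adjusted p = 0.0645), with all 6 UNx kidneys above the sham mean. It passed without sham replicate 3 (adjusted p = 0.0239) or UNx replicate 6 (0.0261). Gcsh ranged from 76.6 to 92.0 CPM in shams and from 92.7 to 102.5 in UNx, with no overlap, where 1.31% of all genes had every UNx kidney higher (log2 0.19, SE 0.05, edgeR adjusted p = 0.0609). It passed without UNx replicate 6 (adjusted p = 0.0371). Keg1 differed by 0.02 and Gpt2 by 0.03, Keg1 with a UNx range of 908 to 2153 CPM around shams of 1451 to 2015.

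**Figure D3:**
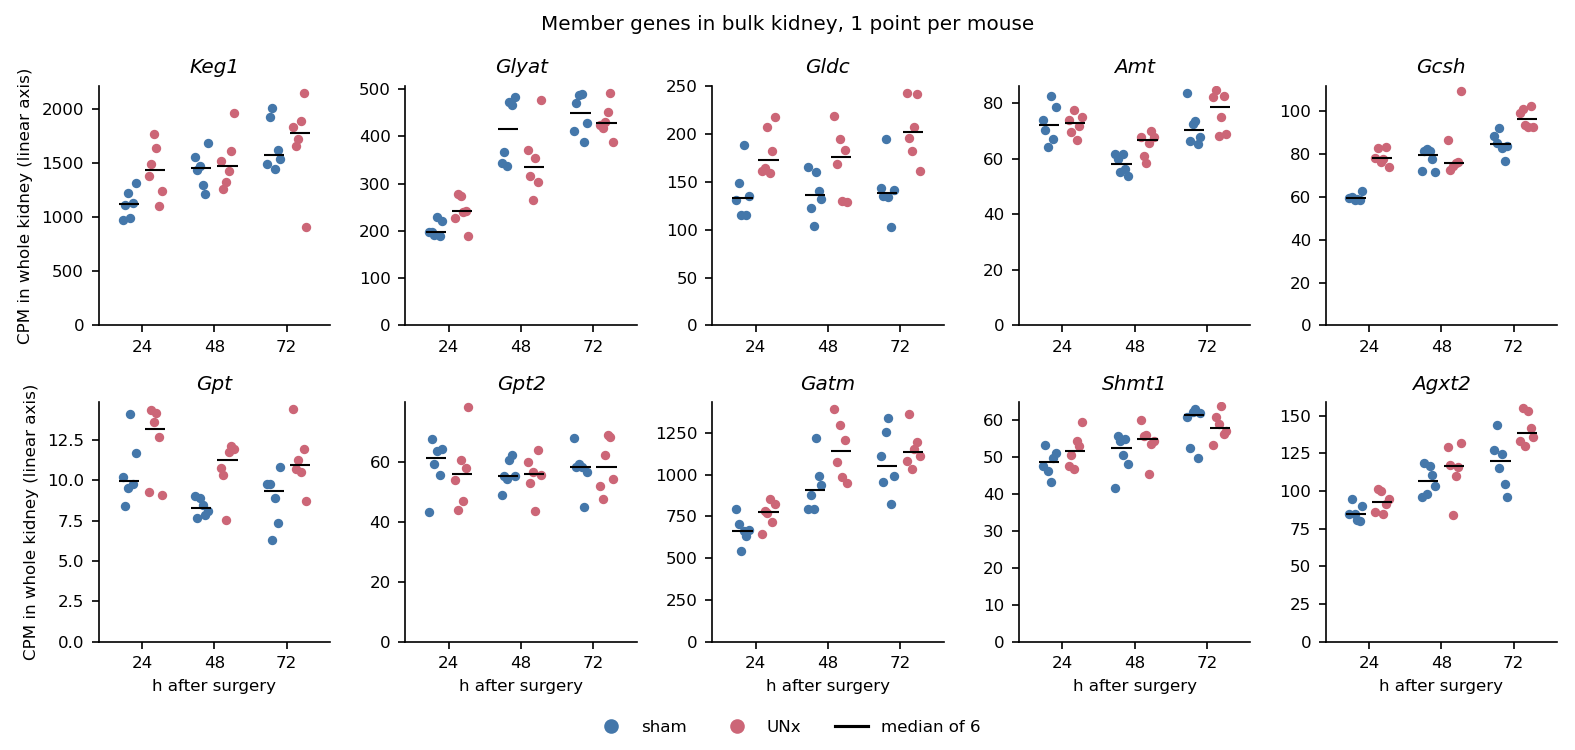
CPM of the 10 members in bulk kidney at 24, 48 and 72 h, 1 point per mouse on linear axes from 0 (blue sham, red UNx; line, median of 6). Gcsh separates sham from UNx at 24 and 72 h, Gldc is higher in UNx at every time with overlap, and Gpt2 overlaps throughout.

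The UNx effect differed between 48 and 24 h for 2 of 10 members, both lower at 48 h, beside 37.0% of all genes in either direction and 17.7% lower. Each was the difference of 2 log2 fold changes tested in 1 edgeR fit over all 36 libraries. The effect was lower at 48 h for Glyat (difference -0.46, SE 0.16, adjusted p = 0.0200) and for Gcsh (difference -0.28, SE 0.10, adjusted p = 0.0187), and both were called in each of 24 fits without 1 library. With the profile score as a covariate both differences turned positive, to 0.28 and 0.25, and neither was called. Between 72 and 24 h (4.15% of all genes) and between 72 and 48 h (14.6%) no member's effect differed by edgeR's test, except that Gcsh did for 72 against 48 h without UNx 48 h replicate 6 (0.20, adjusted p = 0.0363). For 48 against 24 h, Amt (0.20, adjusted p = 0.0988) just passed without sham 24 h replicate 3 (0.24, 0.0500).

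Side by side at 24 h, Keg1 was lower in proximal nuclei of both UNx mice (log2 -2.54 in PTS1, -2.89 in PTS2) and rose in bulk kidney (0.36). Gldc was lower in PTS1 and PTS2 nuclei (-1.34 and -2.89) and rose in bulk (0.38). Gcsh had -0.73 in PTS1 nuclei and rose in bulk (0.40), and Gpt2 had -1.43 in PTS1 nuclei and -0.05 in bulk. Gatm had -0.65 in PTS1 nuclei and 0.20 in bulk, where it was not called. For Glyat, Gpt, Amt, Shmt1 and Agxt2 some values shared a sign, as the Gpt2 values did. Glyat had 0.00, -0.02 and 0.37 in PTS1, PTS2 and PTS3 nuclei and rose in bulk (0.24). Gpt had -0.09, 0.73 and 1.08 in these nuclei and 0.20 in bulk, where it was not called. In the same order Amt had -0.50, -0.25 and -0.04, with -0.01 in bulk. Shmt1 had 0.03, 0.21 and -0.25, with 0.10 in bulk, and Agxt2 had 0.43, 0.03 and -0.28, with 0.11 in bulk. Neither Amt, Shmt1 nor Agxt2 was called in bulk. Nuclei and whole kidney were measured in different mice, with nuclear RNA read at the 3′ end in the one and polyadenylated RNA of whole tissue in the other, and the difference between them was not tested. Summed proximal tubule markers in bulk were 8501 to 10268 CPM in the 24 h shams and 8401 to 9441 in UNx, which overlapped.

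**Figure D4:**
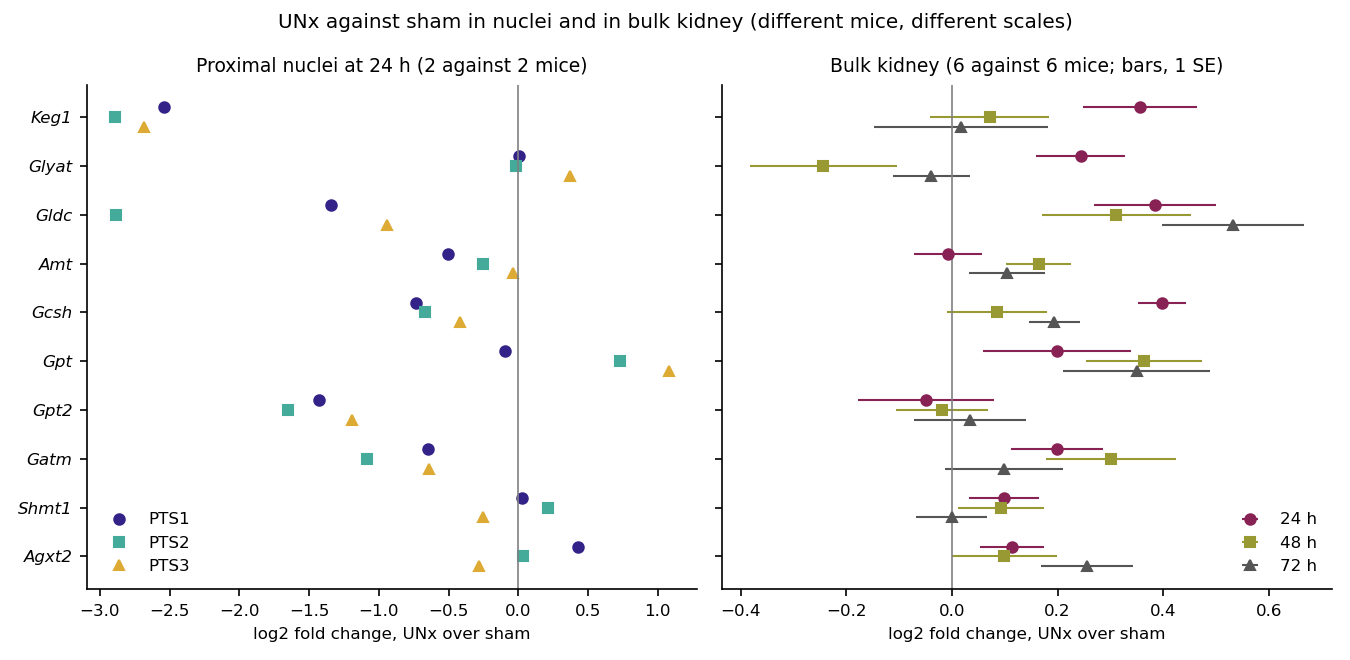
Log2 fold changes of the 10 members, UNx over sham, in PTS1, PTS2 and PTS3 nuclei at 24 h (left) and in bulk kidney at 24, 48 and 72 h (right; bars, 1 SE), on axes of different length. Keg1 and Gldc lie left of 0 in the nuclei and right of 0 in bulk at 24 h (0.36 and 0.38), and Gpt2 lies near 0 in bulk at all 3 times.

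A hepatocyte marker list moved with surgery in bulk. Several members are also liver genes. Its summed level did not overlap between sham and UNx at any time, with UNx over sham ratios of 1.64, 2.69 and 2.26 at 24, 48 and 72 h over 3 of 4 genes tested. Ttr (transthyretin) made up most of it, at 43.2 to 61.9 CPM in the 24 h shams and 62.3 to 105 in UNx. Alb (albumin), the defining hepatocyte gene, was at 2.82 to 4.72 and 2.85 to 4.87 CPM at 24 h and overlapped. At 48 h Alb was at 4.22 to 5.36 CPM in shams and 4.37 to 8.48 in UNx, with overlap, as at 72 h. Of the 3 genes tested (Ttr, Alb and Apoa1), 1 was called higher at 24 h, 3 at 48 h and 1 at 72 h. In PTS1 nuclei Ttr was at 22.4, 76.1, 79.2 and 80.7 CPM in sham1, sham2, UNx1 and UNx2. The part of this list in the members' values was not tested.

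The wider pathway was read in 94 genes of 8 lists, which include the members. At 24 h, 83 were tested, of which 12 rose and 13 fell. At 48 h, 84 were tested, of which 19 rose and 6 fell, and at 72 h 4 of 84 rose and none fell. Over all genes tested the shares were 27.3%, 32.9% and 1.71%, and the lists' 25 and 25 calls at 24 and 48 h were near that background. By direction, 14.2% of all genes were called higher and 13.1% lower at 24 h, and 16.9% and 16.0% at 48 h. These shares stand beside the counts of each list below. The lists are small, and nothing about a pathway is read from their counts. The lists' median log2 fold change was 0.00, 0.08 and 0.04, against 0.01, -0.04 and 0.00 over all genes. With the profile score as a covariate 2, 0 and 0 list genes were called, and without UNx replicates 1 to 5 none was called at 48 h. Leaving out 1 library gave 8 to 13 higher and 8 to 14 lower at 24 h, 17 to 23 and 4 to 9 at 48 h, and 1 to 10 and 0 to 0 at 72 h.

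In the cleavage system at 24 h, Gcsh and Gldc rose and Dld, which reoxidises the H protein, fell by 0.24 on the log2 scale (edgeR adjusted p = 0.0310, lost without any 1 of sham replicates 4, 5 and 6 and UNx replicates 1, 2 and 5, with 0.0758 as the highest adjusted p), whereas none of the 4 genes was called at 48 or 72 h. The list for serine and glycine supply, with 17 genes tested, also holds genes that use these amino acids or act on related compounds. At 24 h 1 rose (Psat1) and 4 fell (Bhmt2, Dao, Pipox and Srr). At 48 h 7 rose (Bhmt2, Dao, Gnmt, Pipox, Psat1, Shmt2 and Srr) and none fell, where 16.9% of all genes were called higher and 16.0% lower. Gnmt, for example, uses glycine, so these counts do not measure supply. At 24 h Psat1, the phosphoserine aminotransferase of serine synthesis, rose by 0.62 (adjusted p = 0.00123) and Dao (D-amino acid oxidase) fell by 0.45 (adjusted p = 0.000635). At 48 h Shmt2, the mitochondrial serine hydroxymethyltransferase, was at 151 to 189.5 CPM in shams and 221 to 369.5 in UNx with no overlap, and rose by 0.83 (edgeR adjusted p = 0.000346). Psat1 was the gene of this list called at 72 h (0.60, adjusted p = 0.0430); the call was kept only without sham replicate 5 or UNx replicate 6, and the highest adjusted p without 1 library was 0.102.

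Of 15 folate genes, 2 rose and 1 fell at 24 h, 2 rose and 2 fell at 48 h and 2 rose at 72 h. Fpgs (folylpolyglutamate synthase) fell by 0.33 at 24 h (edgeR adjusted p = 0.00374) and rose by 0.52 at 48 h (adjusted p = 0.00127). Mtr (methionine synthase) rose by 0.21 at 24 h, Mthfd2l fell by 0.47 at 48 h, and Tyms (thymidylate synthase) rose by 0.32 at 72 h (adjusted p = 0.0320; kept only without sham replicate 1, sham replicate 2, UNx replicate 3 or UNx replicate 6, with 0.0773 as the highest). Of 13 aminotransferases, 2 rose and 2 fell at 24 h, with Got1 up by 0.47 and Aadat (aminoadipate aminotransferase) down (-0.63). At 48 h 4 rose and 1 fell, with Kyat1 at 0.41 and Oat (ornithine aminotransferase) at -0.59.

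Among the transport genes, Slc38a3 rose at each time. This glutamine transporter of the proximal tubule was at 52.6 to 63.5 CPM in the 24 h shams and 83.0 to 128 in UNx, with no overlap. It rose by 0.87 at 24 h (SE 0.09, edgeR adjusted p = 5.3e-05), by 0.73 at 48 h (adjusted p = 0.000660) and by 0.70 at 72 h (adjusted p = 0.0135), and each call was kept in 12 of 12 fits without 1 library. With the profile score it was still called at 24 h (1.26, adjusted p = 0.0115) and not at 48 h (0.33, 0.352) or 72 h (0.65, 0.0840), and without UNx 48 h replicates 1 to 5 its value was 0.36. Slc6a19, the main brush border transporter of neutral amino acids, fell by 0.48 at 24 h, and its relative Slc6a18 fell by 0.67 at 48 h. In all, 4 transport genes rose and 1 fell of 12 at 24 h, 2 rose and 3 fell of 13 at 48 h, and 1 of 13 rose at 72 h.

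Acyl-CoA synthetases and acyltransferases of glycine conjugation gave 2 rises (Keg1 and Glyat) and 3 falls among 10 genes at 24 h and no call at 48 or 72 h. Acsm1, a medium-chain acyl-CoA synthetase, fell by 0.40 at 24 h (edgeR adjusted p = 0.00144). Of 5 creatine genes none was called at 24 or 72 h, and at 48 h Ckmt1 (a mitochondrial creatine kinase) was called at 0.20 (adjusted p = 0.0396), a call kept only without sham replicate 6 or UNx replicate 6 and with 0.0887 as the highest adjusted p. The glutathione list of 8 genes also holds Alas1, an enzyme of heme synthesis. At 24 h 1 of the 8 fell (Ggt1, gamma-glutamyltransferase, -0.24, edgeR adjusted p = 0.0223). The call was lost without sham replicate 4, sham replicate 6 or UNx replicate 4, with 0.0518 as the highest adjusted p. At 48 h 4 rose (Anpep, Ggt1, Dpep1 and Alas1), with Anpep (aminopeptidase N) at 0.79 (edgeR adjusted p = 0.000445). The glutathione synthesis genes Gclc, Gclm and Gss were not called at 48 h.

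Some list genes were called in different directions at 24 and 48 h. Of 11 list genes called at both 24 and 48 h, 7 went in opposite directions, and 6 of these (Bhmt2, Dao, Fpgs, Ggt1, Pipox and Srr) fell at 24 h and rose at 48 h. The share of all genes that changed direction in this way was not computed, so nothing about these genes is read from the count. The UNx effect differed between 48 and 24 h for 29 of 84 list genes, 19 higher and 10 lower, where 37.0% of all genes did. Dao had log2 fold changes of -0.45 at 24 h and 0.39 at 48 h (difference 0.87, SE 0.11, edgeR adjusted p = 5.3e-07). Psat1, Slc38a3, Slc6a19 and Tyms kept 1 direction at both times. The times lie in different labelled batches, and the profile scores of the UNx libraries lay below those of the shams at 24 h and above them at 48 h in 5 of 6 libraries.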

How the data were processed

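The deposited bulk table holds expected counts per Ensembl gene, which the authors had not normalized; per the submitters' processing notes, FastQC 0.11.8, Salmon 1.5.0 and the build GRCm39 were used, with settings not given in the sources used here. Salmon shares reads between transcripts, so 34.1% of the bulk values are not whole. For the nuclei the authors deposited estimated counts of UMIs (13.9% of the values above 0 not whole), with alevin, Seurat and mm10 named in the submitters' processing notes. Nuclei had been filtered before deposit (lowest total 1755 UMIs), how doublets were treated is not given, and none were called here. Classes come from the authors' annotation, in the form with 30 classes; 23 had at least 10 nuclei in every mouse. Per the labels, a stranded poly-A kit served for bulk RNA and a 3′ droplet kit for nuclei sorted on a DNA stain.

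Counts were rounded to whole numbers, for nuclei after summing per mouse and class. Tests used edgeR 4.0.16 (quasi-likelihood, filterByExpr, TMM, two-sided, R 4.3.3) and a call was a Benjamini-Hochberg adjusted p under 0.05 over all genes tested; the script was tested on simulated counts. No pair of the 90 replicate pairs agreed within sampling noise (chi-square per gene at least 5.08). Nuclei of the same replicate number share a labelled batch and deviated together (correlation 0.806), so values with batch as a block are given beside the counts; cells of 1 mouse are not replicates. The bulk replicates are separate mice by their labels. Counting error of the shares of nuclei was computed as exact 95% binomial intervals.

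Alternatives were DESeq2 1.42.0 size factors and Wald test, limma 3.58.1 voom with quality weights, no filter, no mitochondrially encoded genes, the replicate number as a block, the profile score as a covariate, all 36 libraries in 1 fit, each library left out, and 48 h without UNx replicates 1 to 5. The members, lists and tests were chosen with earlier results of these data known. Named were all members; of each pathway list, the called gene of lowest p among rises and among falls at each bulk time; and the 3 genes whose class levels were most like those of Keg1, Gldc and Gpt2, among named genes with at least 100 UMIs in the shams. The genes called at both 24 and 48 h, and Slc6a19 and Psat1 beyond their places under this rule, were named after their values were seen. So were Gnmt of the serine and glycine list, and Alas1, Dpep1, Gclc, Gclm and Gss of the glutathione list. Promoters were matched by symbol to RefSeq (GRCm38.p6), for 9 of 10 members. For 1 list gene, Gcat, with more than 1 Ensembl identifier in the table, the more highly expressed one was used.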

Additional observations from a re-analysis of the deposited data

Results flagged for a closer look

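In bulk kidney at 24 h, sham replicate 6 held 62.8 CPM of Gcsh, farther from the other 5 shams than Dixon's limit of 0.625 for 6 samples allows. This was 1 of 60 groups of 6 examined over the members, and chance flags about 1 in 20. The value still lay below every UNx kidney at that time, of which the lowest was at 74.0 CPM.

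At 24 h Gldc and Gcsh were lower in proximal nuclei and higher in bulk kidney. The log2 difference in nuclei was -1.34 in PTS1 and -2.89 in PTS2 for Gldc, and -0.73 in PTS1, -0.67 in PTS2 and -0.42 in PTS3 for Gcsh, with each UNx mouse below the sham mean. For Gcsh the groups overlapped in PTS2 (UNx2 at 20.8 CPM, sham1 at 19.7) and in PTS3 (21.3 and 20.2), and depth limits this gene in nuclei. Gldc was one of the genes for which the list was chosen because they were lower in these nuclei. In bulk kidney each of the 6 UNx mice lay above the sham mean for both genes. The difference between nuclei and bulk was not tested.

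Between 48 and 24 h the bulk effect of UNx differed for Gcsh (-0.28) and Glyat (-0.46) by the edgeR test of that difference, where it differed for 37.0% of all genes. With the profile score as a covariate both differences turned positive and neither was called.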

How the results depend on the processing

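At 24 h the 4 members called in bulk became 0 with the profile score, 1 with all 36 libraries in 1 fit (Gcsh) and 1 to 4 without 1 library. At 48 h the 1 called member became 2 with DESeq2 size factors, 3 with the DESeq2 Wald test, 5 with voom, 2 without mitochondrially encoded genes, 3 with all 36 libraries in 1 fit, 0 with the replicate block, 0 with the profile score, 0 without UNx replicates 1 to 5 and 0 to 5 without 1 library. At 72 h the count of 0 became 2 with the DESeq2 Wald test, 2 with voom, 1 with all 36 libraries in 1 fit and 0 to 2 without 1 library. For 48 against 24 h the 2 became 0 with the profile score and ranged over 2 to 3 without 1 library, and for 72 against 48 h the 0 ranged over 0 to 1. In nuclei the count of 0 in PTS1, PTS2 and PTS3 became 2, 2 and 1 with the DESeq2 Wald test and 3, 4 and 2 with the replicate block, and stayed at 0 without 1 mouse. Signs turned under the profile score for Glyat at 24 h (-0.088) and for the 48 against 24 h differences of Gcsh (0.25) and Glyat (0.28). Of the members' values under all alternatives, 1619 kept their direction and side of the threshold, 41 passed it, 27 lost it and 3 turned sign; the causes were not tested. Over all genes the 24 h count of 3852 became 72 with the profile score. The 48 h count of 4696 became 0 with the score and 0 without UNx replicates 1 to 5. The 72 h count of 249 became 673 with the Wald test, 809 with voom, 120 with the block, 104 with the score and 102 to 677 without 1 library. The 626 of 72 against 24 h became 364 with no filter and 57 with the score, and 376 and 405 without sham 24 h replicates 6 and 4, the 5587 of 48 against 24 h became 1 with the score, and the 2210 of 72 against 48 h became 0 with the score and 3766 without UNx 48 h replicate 6. In bulk, same-numbered sham and UNx mice did not deviate together (correlations -0.157 to 0.0285, -0.142 to 0.0739 and -0.295 to 0.141 at the 3 times; 0, 0 and 1 of 6 correlated best with their own number). The replicate block there lost Glyat at 24 h (adjusted p = 0.0903) and Gpt at 48 h (0.0528). Depth limits Amt, Gcsh and Gpt in nuclei.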

Other observations

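The members' levels in the shams differed with time as well. The sham median of Glyat was 198 CPM at 24 h, 416 at 48 h and 449 at 72 h, that of Keg1 1124, 1458 and 1578, that of Gatm 664, 909 and 1053, and that of Gcsh 59.3, 79.6 and 84.6. Gldc was at 134, 136 and 138 CPM and Gpt2 at 61.4, 55.2 and 58.3. The 24 h shams are all of labelled batch 1 and the later shams of batch 2, so time and batch cannot be told apart.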
